A study of Mus musculus with 6 samples.

Results

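Transforming growth factor beta (TGF-beta) signalling was followed through 10 genes: the ligands *Tgfb1*, *Tgfb2* and *Tgfb3*, the receptors *Tgfbr1*, *Tgfbr2* and *Tgfbr3*, the latent binders *Ltbp1*, *Ltbp2* and *Ltbp3*, and the induced matrix protein *Tgfbi*. They were chosen by gene symbol, and all 10 were found among the 16279 genes listed in either of 2 bulk RNA-seq tables. The study compared mouse embryonic stem cells (mESCs) with cardiac precursor cell cultures (CPCCs) derived from them in vitro, with 3 libraries of each. The mESCs were male F1 hybrids of a C57BL/6J mother and a CAST/EiJ father, from 3 blastocysts, and were kept without feeders in inhibitors and LIF. The CPCCs were made from those mESCs through embryoid bodies, passaged in an enrichment medium with EGF and Fgf2, and are described by the study as heterogeneous cultures. Each cell type is therefore represented by lines of 1 genetic cross, and cell type, medium and time in culture cannot be told apart. Since the columns of the tables do not name a replicate, the libraries are called here S01, S02 and S03 (mESC) and S04, S05 and S06 (CPCC).

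TGF-beta ligands are made as precursors that stay bound to their own propeptide, and this latent complex is tied to microfibrils of the matrix by latent TGF-beta binding proteins. Proteases, thrombospondin and integrins with an alpha-v chain release the ligand, which is bound by the type II receptor Tgfbr2. Tgfbr2 then activates the type I receptor Tgfbr1, Tgfbr3 (betaglycan) presents ligand, in particular Tgfb2, to the pair, and Smad2 and Smad3 carry the signal to the nucleus with Smad4. In the embryonic heart the pathway is known for its part in the change of endocardial cells to cushion mesenchyme.

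Libraries held 6442639 to 6907330 counts in mESCs and 8468819 to 11436062 in CPCCs, and levels are given as counts per 1000000 counts (CPM) after TMM normalization, on which 3 counts equal 0.298 to 0.463 CPM. Summed levels of 10 pluripotency markers were 6515 to 6649 CPM in mESCs and 171.8 to 462.7 CPM in CPCCs, and all 10 fell. Among 10 cardiac markers, only *Tnnt2* of the 4 tested rose, and 5 were listed for CPCCs alone. The sum was 4.41 to 6.64 CPM in mESCs and 132.3 to 443.1 CPM in CPCCs. *Actc1* was the highest in CPCCs (280.6, 85.4 and 85.6 CPM in S04, S05 and S06). *Mef2c* had 9.94 to 19.3 CPM there and *Myh6* 5.34 to 21.2 CPM, while *Nkx2-5* was at 0 in S05 and *Tbx5* was absent from the CPCC table. CPCC is therefore used as the name the study gives to these cultures. Mesenchymal and fibroblast markers summed to 101.3 to 137.3 CPM in mESCs and to 8225 to 12070 CPM in CPCCs, where 4 of the 5 tested rose and the other 6 of 11 were listed for CPCCs alone. Neural markers summed to 45.1 to 50.3 CPM in mESCs and to 583.3 to 622.2 CPM in CPCCs (4 of 5 tested rose, 1 fell). The highest of them in CPCCs were *Nes* (336.1, 409.6 and 328.9 CPM in S04, S05 and S06) and *Tubb3* (215.3, 118.5 and 133.1 CPM). Endoderm markers summed to 82.1 to 132.2 CPM in mESCs and to 345.3 to 562.8 CPM in CPCCs (3 of 4 tested rose). *Krt8* was the highest of these in CPCCs at 254.5 to 415.4 CPM, *Epcam* was not called, and *Sox17* did not pass the filter. *Neurog2*, *Afp*, *Ttr* and *Apoa1* were in neither table. In bulk libraries, a change in the share of a cell type and a change in RNA per cell cannot be told apart.

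Of the 10 genes, 9 were tested for a difference, 8 were higher in CPCCs and 1, *Tgfbr3*, was lower. The tenth, *Tgfb3*, was listed for CPCCs alone. Differences were tested with edgeR (quasi-likelihood) over 12471 genes, and p-values were adjusted after Benjamini-Hochberg, with a threshold of 0.05. Across all those genes 61.4% were called, 31.7% as higher and 29.7% as lower, so a call by itself was common between these cell types. The libraries of the 2 cell types did not overlap for any of the 9 tested genes, as was the case for 69.7% of all tested genes. Of the rises, 6 were above 10-fold, a size that 748 genes (6% of those tested) reached. The median log2 fold change was 4.28 over the 9 genes, 4.64 with *Tgfb3* at its lower bound, and 0.031 over all tested genes. All 9 calls were made also without S04, the CPCC library with the highest sum of blood and macrophage markers.

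**Figure D1:**
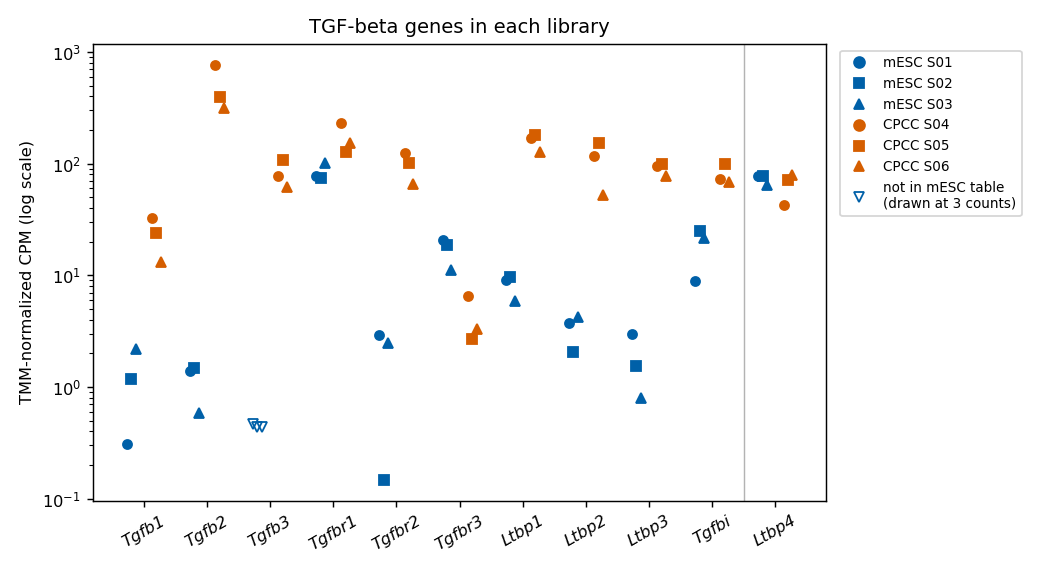
TMM-normalized CPM of each gene (log scale) in the 3 mESC libraries (blue) and the 3 CPCC libraries (orange); each point is 1 library, and open triangles mark *Tgfb3*, which the mESC table does not list, at 3 counts. The 2 cell types stand apart for each of the 10 genes left of the line, with *Tgfbr3* the one that is higher in mESCs, and overlap for *Ltbp4*.

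*Tgfb2* had the largest change of the 9 tested genes (chromosome 1, 186622792 to 186705990, minus strand, on GRCm38, as are all positions given). Its level was 1.39, 1.47 and 0.585 CPM in S01, S02 and S03, against 769.7, 391.7 and 314.7 CPM in S04, S05 and S06. The lowest CPCC library was 213.9-fold above the highest mESC library. Means were 1.15 ± 0.490 CPM in mESCs and 492 ± 243.5 CPM in CPCCs (SD, n = 3 each), a log2 fold change of 8.73 (standard error, SE, 0.50, adjusted p = 2.86e-06), or 424-fold. It ranked 11 among the 12471 tested genes by the size of its rise. The mESC level rested on 23 counts over the 3 libraries, or 1.14 CPM with an exact Poisson 95% interval of 0.725 to 1.72 CPM, which covers counting error only.

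*Tgfb1*, the ligand best known from immune cells and wound repair (chromosome 7, 25687002 to 25705078, plus strand), also rose, by less. Its mESC libraries had 0.309, 1.18 and 2.19 CPM and its CPCC libraries 32.9, 23.9 and 13.3 CPM. Means were 1.23 ± 0.943 and 23.4 ± 9.82 CPM (SD, n = 3 each), a log2 fold change of 4.22 (SE 0.58, adjusted p = 0.000271), or 18.7-fold. The mESC value rested on 25 counts, 1.24 CPM with an exact Poisson 95% interval of 0.804 to 1.83 CPM, and S01 held 2 of them. In CPCCs the order of the libraries, S04 above S05 above S06, was also that of the summed blood and macrophage markers, which were 366.2, 108.7 and 48.8 CPM there and 11.0 to 15.3 CPM in mESCs. Of those 10 markers, *Cd68* rose, 8 were listed for CPCCs alone and *Hba-a1* was in neither table. In S06 *Tgfb1* was 13.3 CPM, and the markers ranged from *Ptprc* at 0.344 CPM and *Csf1r* at 4.93 CPM to *Cd68* at 13.9 CPM and *Lyz2* at 14.0 CPM. These values are not scaled to gene length, so they do not compare levels between genes. *Tgfb2* and *Tgfbr2* had the same order of CPCC libraries as *Tgfb1*. Among the 3955 genes called higher in CPCCs, 56% were highest in S04 and 55.4% were lowest in S06. Without S04 the log2 fold change of *Tgfb1* was 3.90, within a range of 3.78 to 4.93 over leaving out each library. The part of such cells in its level was not tested.

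*Tgfb3* (chromosome 12, 86056743 to 86079042, minus strand) is absent from the mESC table, in which the lowest sum over 3 libraries is 10 counts. In CPCCs it had 78.2, 107.7 and 62.3 CPM, a mean of 82.8 ± 23.0 (SD, n = 3). Taken against 3 counts in each mESC library (0.448 CPM), it was 184.8-fold higher in CPCCs. This lower bound is approximate, since the estimated counts are not all whole and an unlisted gene can hold slightly more. The edgeR fit with missing genes at 3 counts gave a log2 fold change of 7.41. Among the 2518 genes listed for CPCCs alone, this bound ranked 66.

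Promoters of 8 of the 10 genes, with 10 start sites, were matched in the RefSeq table for GRCm38.p6, which gives 250 bases before and 50 after a start for 32851 promoters. *Tgfb3* and *Tgfbr3* had no entry. Both strands were searched for 5 motifs, which were TATAAA as the core of a TATA box, GGGCGG as the GC box bound by Sp1, CACGTG as an E-box, TGACGTCA as the cAMP response element and TGANTCA as the site of AP-1. The 250 bases before the start are shown for *Tgfb2* and *Tgfb1*, the ligands that could be tested, and for *Ltbp1*, with the motifs found in capitals on either strand. No capital stretch joins overlapping motifs.
Tgfb2 promoter, chr1:186705990-186706239, minus strand: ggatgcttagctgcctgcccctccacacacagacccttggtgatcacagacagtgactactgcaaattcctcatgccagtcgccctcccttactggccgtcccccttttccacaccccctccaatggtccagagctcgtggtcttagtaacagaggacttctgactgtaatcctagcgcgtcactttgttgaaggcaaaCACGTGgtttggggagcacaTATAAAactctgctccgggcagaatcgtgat
Tgfb1 promoter, chr7:25686752-25687001, plus strand: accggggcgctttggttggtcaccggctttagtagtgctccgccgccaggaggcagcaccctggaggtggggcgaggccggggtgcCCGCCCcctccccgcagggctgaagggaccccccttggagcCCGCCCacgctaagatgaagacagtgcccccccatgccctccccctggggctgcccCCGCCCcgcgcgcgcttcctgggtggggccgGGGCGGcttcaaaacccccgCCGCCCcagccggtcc
Ltbp1 promoter (first start site), chr17:75005279-75005528, plus strand: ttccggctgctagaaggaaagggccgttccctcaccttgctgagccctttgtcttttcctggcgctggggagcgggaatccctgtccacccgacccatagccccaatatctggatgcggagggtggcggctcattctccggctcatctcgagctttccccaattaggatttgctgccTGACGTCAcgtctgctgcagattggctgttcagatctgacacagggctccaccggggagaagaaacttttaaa

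The *Tgfb2* promoter holds TATAAA 31 bases before the start (held by 13.6% of all promoters) and CACGTG 51 bases before it (7.15% of promoters), with no GGGCGG. *Tgfb1* has the reverse layout, with no TATAAA and 6 copies of GGGCGG in the 300 bases, the first of them 164 bases and the fifth 16 bases before the start. GGGCGG occurs in 35.7% of promoters. Guanine and cytosine made up 77% of the *Tgfb1* promoter and 54.3% of the *Tgfb2* promoter, against a median of 52.7%. *Ltbp1* holds TGACGTCA 73 bases before its first start site, which 1.79% of promoters hold, and *Ltbp3* holds TGANTCA 6 bases before its start (7.81%). GGGCGG occurred 2 times each at *Tgfbr1* (first start site), *Ltbp2* and *Tgfbi*. These matches are letters in a window and carry no measurement of binding.

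Of the receptors, *Tgfbr2*, the ligand-binding type II receptor (chromosome 9, 116087695 to 116175364, minus strand), rose most. Levels were 2.94, 0.147 and 2.49 CPM in the mESC libraries, where S02 held 1 count, and 123.6, 102.2 and 65.2 CPM in the CPCC libraries. Every CPCC library was at least 22.2-fold above every mESC library. Means were 1.86 ± 1.50 and 97.0 ± 29.5 CPM (SD, n = 3 each), a log2 fold change of 5.70 (SE 0.58, adjusted p = 4.75e-05), or 52.1-fold. Over the 3 mESC libraries it had 37 counts, 1.84 CPM with an exact Poisson 95% interval of 1.30 to 2.54 CPM.

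*Tgfbr1*, the type I kinase that signals to the SMADs (chromosome 4, 47353222 to 47414925, plus strand), was present in both cell types. It had 77.4, 74.4 and 102.4 CPM in mESCs, against 229.7, 126.8 and 152.3 CPM in CPCCs. The gap between the groups was small, with S05 only 1.24-fold above S03. Means were 84.7 ± 15.4 and 169.6 ± 53.6 CPM (SD, n = 3 each), a log2 fold change of 1.00 (SE 0.25, adjusted p = 0.00657). When each library was left out in turn, it ranged from 0.73 without S04 to 1.18, with adjusted p up to 0.0349.

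*Tgfbr3*, the betaglycan co-receptor (chromosome 5, 107106567 to 107289630, minus strand), moved the other way. It had 20.9, 18.7 and 11.3 CPM in mESCs, against 6.56, 2.67 and 3.32 CPM in CPCCs. Even the lowest mESC library was 1.72-fold above the highest CPCC library. Means were 16.9 ± 5.03 and 4.18 ± 2.08 CPM (SD, n = 3 each), a log2 fold change of -2.00 (SE 0.42, adjusted p = 0.00298), or 4.01-fold lower in CPCCs. The CPCC level rested on 117 counts, 4.33 CPM with an exact Poisson 95% interval of 3.58 to 5.19 CPM. The co-receptor that presents Tgfb2 was thus lower in the cultures in which *Tgfb2* itself was 424-fold higher.

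*Ltbp1*, *Ltbp2* and *Ltbp3*, whose proteins lie in the matrix with fibrillin, all rose. *Ltbp1* (chromosome 17, 75005529 to 75392513, plus strand) had 9.11, 9.56 and 5.85 CPM in mESCs, against 170.2, 179 and 126.4 CPM in CPCCs, a log2 fold change of 4.28 (SE 0.26, adjusted p = 3.45e-06), or 19.4-fold. It had the smallest standard error of the 3. *Ltbp2* (chromosome 12, 84783212 to 84876496, minus strand), which has been described as a microfibril protein that does not bind latent TGF-beta, had 3.71, 2.06 and 4.24 CPM in mESCs, against 117.8, 152.7 and 52.1 CPM in CPCCs. Its log2 fold change was 5.01 (SE 0.46, adjusted p = 2.77e-05), or 32.1-fold, and S05 was 2.93-fold above S06. *Ltbp3* (chromosome 19, 5740904 to 5758533, plus strand) had 3.00, 1.56 and 0.790 CPM in mESCs, against 94.5, 99.3 and 76.9 CPM in CPCCs. Its log2 fold change was 5.68 (SE 0.38, adjusted p = 5.7e-06), or 51.1-fold, from 35 counts over the mESC libraries. Its CPCC libraries were the closest to each other of all 10 genes, with a coefficient of variation of 13.0%. Exons of *Ltbp2* share 764 bases with the antisense gene *D030025P21Rik*, and whether the counting used strand is not given in the sources used here.

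*Ltbp4*, the fourth latent binder, was looked at as the remaining member of that family. It had 77.6, 77.8 and 63.9 CPM in mESCs, against 42.4, 71.7 and 79.4 CPM in CPCCs, so that the cell types overlapped. The log2 fold change was -0.18 (SE 0.24, adjusted p = 0.54), with a 95% interval of -0.66 to 0.30, and it was 0.062 without S04. Whether the change of *Ltbp4* differs from that of its relatives was addressed through the share of each in the family.

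**Figure D2:**
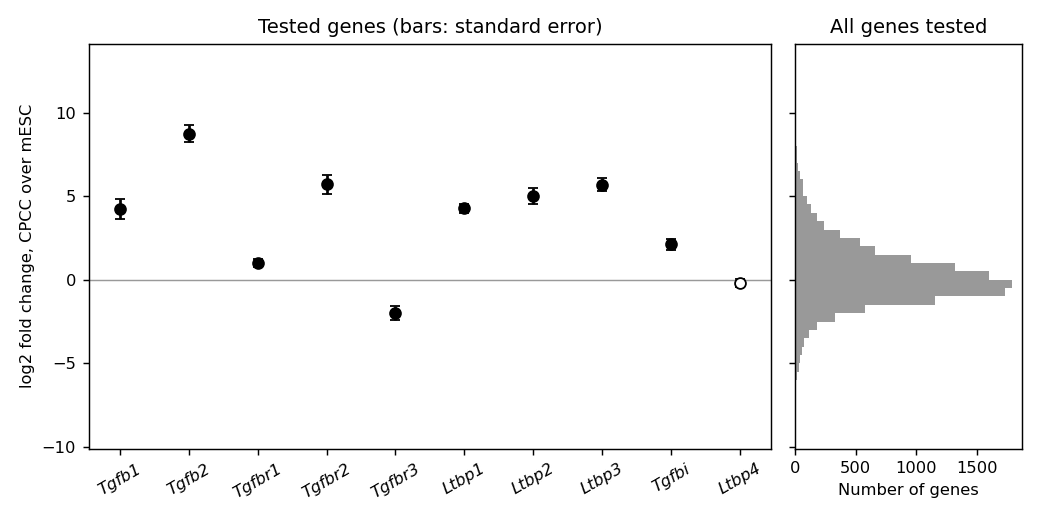
Left, log2 fold change of CPCC over mESC with its standard error for the 9 tested genes and *Ltbp4* (filled, adjusted p under 0.05; open, not); right, the number of tested genes at each log2 fold change. *Tgfb2* stands at 8.73 and *Tgfbr3* at -2.00, while the median over the 12471 genes is 0.031.

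*Tgfbi*, a secreted matrix protein that binds integrins and was named for its induction by TGF-beta (chromosome 13, 56609603 to 56639340, plus strand), had 8.81, 24.9 and 21.5 CPM in mESCs, against 72.7, 98.5 and 67.8 CPM in CPCCs. S01 lay well below both other mESC libraries. Means were 18.4 ± 8.47 and 79.7 ± 16.5 CPM (SD, n = 3 each), a log2 fold change of 2.11 (SE 0.35, adjusted p = 0.000828), or 4.32-fold.

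Levels were compared between genes per kilobase of merged exons, as CPM per kilobase. In mESCs *Tgfbr1* led with 13.0 ± 2.35, followed by *Ltbp4* (11.3 ± 1.23), *Tgfbi* (4.88 ± 2.25), *Tgfbr3* (2.59 ± 0.769) and *Ltbp1* (0.765 ± 0.190; SD, n = 3 for each). *Tgfbr1* and *Ltbp4* overlapped each other, as did *Tgfbi* and *Tgfbr3*. The remaining genes listed for mESCs, *Ltbp2*, *Tgfb1*, *Tgfbr2*, *Tgfb2* and *Ltbp3*, had means of 0.196 to 0.408 and overlapped their neighbours in that order. In CPCCs *Tgfb2* led with 85.0 ± 42.1 and did not overlap the next gene, *Tgfbr1* (26.0 ± 8.20). *Tgfbr1*, *Tgfb3* (24.5 ± 6.80) and *Tgfbi* (21.1 ± 4.37) overlapped in turn, as did *Ltbp1*, *Ltbp2*, *Tgfbr2*, *Ltbp4* and *Ltbp3*, with means of 14.8 down to 9.95. *Tgfb1* (4.63 ± 1.95) and *Tgfbr3* (0.639 ± 0.318) were the lowest and did not overlap each other, and *Tgfb1* overlapped *Ltbp2* but not *Ltbp3*, the gene next above it. The order depended on the length used, since by coding length *Tgfb1* stood above *Ltbp2* and *Ltbp4* in CPCCs.

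The make-up of each family was compared within libraries, for the ligands in CPCCs alone. *Tgfb2* made up 81.8%, 64.9% and 72.1% of the 3 ligands per kilobase in S04, S05 and S06, *Tgfb3* 14.2%, 30.6% and 24.4%, and *Tgfb1* 4.01%, 4.55% and 3.50%. So *Tgfb2* was the main ligand transcript in every CPCC library. Among the 3 receptors, *Tgfbr2* was 2.33%, 0.126% and 1.72% in mESCs and 29.5%, 38.7% and 25.1% in CPCCs, and *Tgfbr3* was 9.73% to 20.7% in mESCs and 1.26% to 1.96% in CPCCs. *Tgfbr1* was the main receptor transcript in all 6 libraries, with 77.0% to 88.6% in mESCs and 60.1% to 73.3% in CPCCs. Among the 4 latent binders, *Ltbp4* made up 88.0%, 90.1% and 89.6% in mESCs and 13.9%, 19.3% and 31.5% in CPCCs. *Ltbp1* made up 29.2% to 33.7% of the latent binders in CPCCs, *Ltbp2* 16.3% to 32.5% and *Ltbp3* 19.1% to 22.0%. For every receptor and latent binder share the cell types did not overlap, and the two-sided exact permutation p was 0.10, the smallest that 3 libraries against 3 allow.

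**Figure D3:**
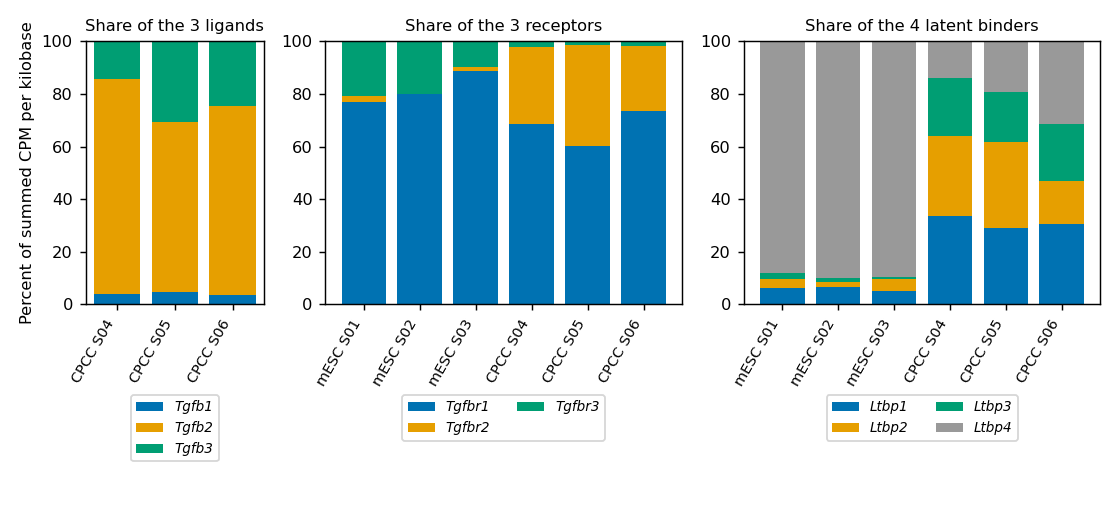
Percent of the summed CPM per kilobase taken by each ligand (CPCC libraries only, since the mESC table lists no *Tgfb3*), each receptor and each latent binder, with 1 bar per library. *Tgfb2* takes 64.9% to 81.8% of the ligands in CPCCs, *Tgfbr2* takes 25.1% to 38.7% of the receptors there against at most 2.33% in mESCs, and *Ltbp4* takes 88.0% to 90.1% of the latent binders in mESCs and 13.9% to 31.5% in CPCCs.

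Each of the 10 genes was highest in the CPCC library S04 or S05. *Tgfb1*, *Tgfb2* and the 3 receptors were highest in S04, and *Tgfb3*, the 3 latent binders and *Tgfbi* were highest in S05. S04 and S05 were close for *Ltbp1* (170.2 and 179 CPM) and *Ltbp3* (94.5 and 99.3 CPM), and no grouping of the genes is read from this order. None was highest in S06, which was the lowest library for 8 of the 10. Of the 3955 genes called higher in CPCCs, 56% were highest in S04, 29% in S05 and 15% in S06, and 55.4% were lowest in S06. S04 was also the deepest library and the one with the highest sums of cardiac and of blood and macrophage markers.

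For each tested gene, the genes with the most similar pattern were found over all 6 libraries by the root mean square (RMS) difference of log2 CPM after centring each gene, which is smaller for closer patterns. *Tgfb2* was closest to *Myl9*, a regulatory myosin light chain (0.43), and to *Timp3*, an inhibitor of metalloproteases (0.45). *Tgfb1* was closest to *Fkbp7* (0.25) and *Rora* (0.31), *Tgfbr1* to *Gopc* (0.06) and *Arhgap21* (0.08), *Tgfbr2* to *Nbl1*, a secreted antagonist of BMP ligands (0.26), and *Selenop* (0.45), and *Tgfbr3* to *Dedd2* (0.16) and *Mir5099* (0.25). *Ltbp1* was closest to *Enpp5* (0.05) and *Hdac7* (0.10), *Ltbp2* to *Fzd6* (0.29) and *S1pr1* (0.30), *Ltbp3* to *Cpne8* (0.21) and *Pear1* (0.22), and *Tgfbi* to *Tmem254a* (0.13) and *Hoxa4* (0.18). Between the genes themselves, the closest pair was *Ltbp1* and *Ltbp2* (0.64). *Tgfbr2*, *Nbl1* and *Selenop* each stood at 0.147 CPM in S02, which was 1 count of *Tgfbr2*, so counting error enters these matches. *Hoxa4* (0.155 CPM in S01) and *Mir5099* (0.485 CPM in S05) were also near the floor. With 6 libraries of 2 cell types, these distances describe the libraries and were not tested.

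Other genes of the pathway were taken from lists chosen by function, beginning with the matrix. Of 5 partners of the latent complex, *Ltbp4* among them, 4 were tested, 2 rose and none fell. Over all tested genes 31.7% were called as higher and 29.7% as lower. The median log2 fold change of 3.76 lay between *Ltbp4* (-0.18) and *Nrros* (0.40), which were not called, and the 2 that rose. The 2 that rose were *Fbn1* and *Fbn2*, the fibrillins on which latent complexes are held. *Fbn1* went from 2.32, 1.32 and 2.78 CPM in mESCs to 516.3, 729.5 and 454.3 CPM in CPCCs, a log2 fold change of 8.04 (SE 0.33, adjusted p = 1.28e-06). *Fbn2* had a log2 fold change of 7.12 (SE 0.34, adjusted p = 1.61e-06). *Lrrc32*, a cell-surface anchor of latent TGF-beta, was listed for CPCCs alone at 35.7 ± 8.79 CPM (SD, n = 3), a level 79.8-fold above 3 counts in each mESC library. With *Lrrc32* at this bound, the median of the list was 6.32. *Nrros*, the anchor of microglia and macrophages, had a log2 fold change of 0.40 (adjusted p = 0.644).

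Among 15 genes of ligand processing and activation, all 9 tested rose, where 31.7% of all tested genes were called as higher. Their median log2 fold change was 4.53, and the other 6 genes were listed for CPCCs alone. *Bmp1*, a protease that cleaves latent binders, rose by a log2 fold change of 7.97 (SE 0.31, adjusted p = 9.64e-07), from 1.70, 3.09 and 2.05 to 718.5, 563 and 447.6 CPM. The plasminogen activator *Plat* had 7.48 (SE 0.29, adjusted p = 9.64e-07) and the gelatinase *Mmp2* 6.95 (SE 0.32, adjusted p = 1.35e-06). *Itgav*, the alpha-v chain shared by the activating integrins, rose 7.15-fold and its partner *Itgb1* 23.1-fold. *Thbs1*, thrombospondin 1, an activator of latent TGF-beta, was listed for CPCCs alone at 4559, 1709 and 1275 CPM, with a mean 5614-fold above 3 counts in each mESC library. *Itgb6* was listed for CPCCs alone at 0 to 0.802 CPM, at the level of the floor, and its mean was 0.819 times that of 3 counts in each mESC library. With genes listed for CPCCs alone at their bounds, *Itgb6* left out, the median was 4.43.

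Accessory receptors moved in both directions. Of 11, 10 were tested, 6 rose, 2 fell and 2 did not pass, where 31.7% of all tested genes were called as higher and 29.7% as lower. The median log2 fold change was 0.96, and it was -0.19 among those with at least 10 counts in every library. *Nrp1*, a co-receptor for semaphorins and VEGF that also binds TGF-beta, had 0.927, 1.77 and 1.46 CPM in mESCs, against 982, 617.1 and 477.8 CPM in CPCCs, a log2 fold change of 8.94 (SE 0.40, adjusted p = 1.33e-06). Genes whose proteins hold TGF-beta signalling back rose as well, namely *Cd109*, a co-receptor (7.74, SE 0.36, adjusted p = 1.48e-06), and *Vasn*, which binds the ligand (4.81, SE 0.36, adjusted p = 9.1e-06). *Bambi*, a decoy receptor, and *Zfyve9*, which brings SMADs to the receptor, fell, with log2 fold changes of -0.95 (adjusted p = 0.00675) and -0.68 (adjusted p = 0.0412). *Eng*, endoglin, the relative of betaglycan best known from endothelium, had -0.60 (adjusted p = 0.0743), from 18.0 to 21.6 CPM in mESCs to 10.9 to 17.1 CPM in CPCCs, without overlap. *Acvrl1*, its partner type I receptor, was listed for CPCCs alone at 14.2 ± 6.83 CPM (SD, n = 3), 31.8-fold above 3 counts in each mESC library. The 8 endothelial markers summed to 129.3 to 144.7 CPM in mESCs and 26.6 to 37.8 CPM in CPCCs. *Pecam1* and *Egfl7* fell, *Tek* was not called, *Cdh5*, *Kdr* and *Emcn* were listed for CPCCs alone, and *Tie1* and *Cldn5* were in neither table.

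SMADs carry the signal from the receptors to the nucleus. The list held 13 genes, SMADs and their regulators together. All 13 were tested, 5 rose, 2 fell and 6 did not pass, with a median log2 fold change of 0.36. Over all tested genes, 31.7% were called as higher and 29.7% as lower. Among the SMADs themselves, only *Smad3* was called. *Smad3* rose from 19.3, 17.8 and 26.0 CPM to 115, 72.3 and 62.6 CPM (log2 fold change 1.98, SE 0.28, adjusted p = 0.000283). *Smad2*, which acts beside it, had 95.9 to 126.4 CPM in mESCs and 98.2 to 149 CPM in CPCCs (0.17, adjusted p = 0.494), and *Smad4*, the shared partner, had 0.36 (adjusted p = 0.26). The inhibitor *Smad7* had 0.19 (adjusted p = 0.708), with 89.5 CPM in S04 and 34.3 and 28.1 CPM in S05 and S06. *Skil*, a corepressor of SMADs, had 2.15 (SE 0.27, adjusted p = 0.000158), and the ubiquitin ligase *Smurf1* 1.98 (SE 0.27, adjusted p = 0.000242). *Smurf2* and *Ski* also rose, by 0.89 and 0.79. The corepressors *Tgif1* and *Tgif2* fell, with log2 fold changes of -0.70 (adjusted p = 0.00795) and -0.90 (adjusted p = 0.0203).

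Of 17 genes that textbooks give as induced by TGF-beta, 13 were tested, 12 rose and 1, *Klf10*, fell (-0.52, adjusted p = 0.0234). Their median log2 fold change was 4.12, where 31.7% of all tested genes were called as higher and 29.7% as lower. *Col1a1*, the collagen I chain, and *Acta2*, smooth muscle actin, had log2 fold changes of 12.40 (SE 0.40, adjusted p = 7.86e-07) and 12.31 (SE 0.46, adjusted p = 9.64e-07). *Col1a2*, *Tagln*, *Tgfb1i1* and *Postn* were listed for CPCCs alone. Mesenchymal cells are known to make many of these gene products, 2 of the genes (*Col1a1* and *Col1a2*) stand in the mesenchymal marker list above, and the part of such cells in these values was not tested.

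**Figure D4:**
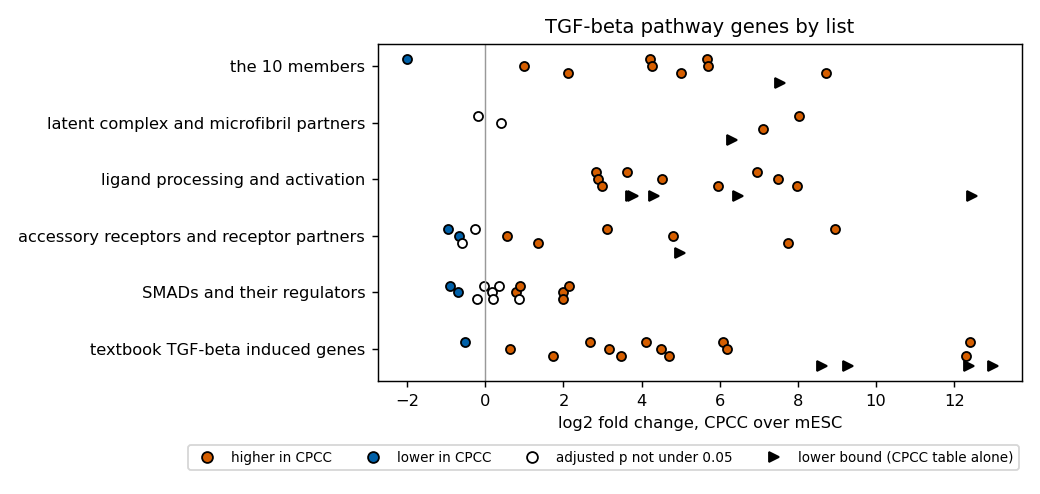
Log2 fold change of CPCC over mESC for every tested gene of each list (orange, higher; blue, lower; white, adjusted p not under 0.05), with black arrowheads for lower bounds of genes listed for CPCCs alone. The medians of the tested genes are 4.28 for the 10 members, 3.76 for latent complex partners, 4.53 for processing and activation, 0.96 for accessory receptors, 0.36 for SMADs and regulators, and 4.12 for induced genes. The median of latent complex partners lies between 2 genes not called and 2 that rose, and is 6.32 with *Lrrc32* at its bound.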

How the data were processed

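Bulk RNA-seq was made from polyA RNA with SMART-Seq v4 cDNA and Nextera XT libraries. The values deposited by the authors are estimated counts per gene, without normalization, in 1 table per cell type, and each table leaves out genes with a sum under 10. The submitters' processing notes name mm10 and STAR 2.7; the counter and its use of strand are not given in the sources used here. Groups came from the labels, and p-values measure the spread between 3 libraries of each cell type.

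Rounded counts were used. Of the 13001 genes that both tables hold, filterByExpr removed 530, and none of the 9 shared members. edgeR 4.0.16 in R 4.3.3 fitted the quasi-likelihood test with TMM normalization. The standard error is the log2 fold change over the square root of F. For genes missing from 1 table, bounds take 3 counts per library and are approximate, since the estimated counts are not all whole. Lengths are from GENCODE M21, and pattern distances use log2 CPM with a prior count of 2. The fit was tested on simulated data. Alternatives were DESeq2 1.42.0, other scalings, filters and thresholds, missing genes set to 0 or 3 counts, leaving out each library, and other lengths. The longest coding transcript was added after seeing the data.

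Members and lists were chosen with earlier results of these data known. Named genes were all members, the 3 largest called changes of each list, and *Ltbp4*, *Smad2*, *Smad3*, *Smad4*, *Smad7*, *Acvrl1* and *Eng*; some items that the rule names are not reported here. Genes that fell, genes listed for CPCCs alone, *Nrros*, *Itgav*, *Itgb1*, *Smurf2*, *Ski* and the markers were named after their values were seen. Alleles, single cells and chromatin were not analysed here.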

Additional observations from a re-analysis of the deposited data

How the results depend on the processing

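All 9 tested members kept their direction and call in every alternative that tested them, DESeq2 and other scalings included. With at least 10 counts in every library, only 5 members were tested and 5 called, since the filter removes genes that are low in mESCs. The same filter left medians of 0.18 (0 called) for latent complex partners, 4.15 for activation, -0.19 (4 called) for accessory receptors and 3.25 for induced genes. A 2-fold threshold gave 2430 genes lower in CPCCs, with 5 accessory receptors and 3 genes of the SMAD list called. With missing genes at 0 counts, *Tgfb3* had a log2 value of 12.35 and the medians were 7.14 for latent complex partners, 7.24 for activation, 1.38 for accessory receptors and 4.72 for induced genes. At 3 counts the medians were 6.20 for latent complex partners and 4.63 for induced genes. Both settings called 14 activation genes. Leaving out each library in turn moved the median of activation genes between 4.15 (without S04) and 4.86 and that of the SMAD list between 0.031 (without S04) and 0.52. *Ltbp4* ranged from -0.35 (without S06) to 0.062 (without S04), a reversal.

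By coding length, *Tgfbr3* was 0.939% of CPCC receptors, *Ltbp1* 9.10% and 35.3% of latent binders in mESCs and CPCCs, *Ltbp3* 2.64% and 27.6%, and *Ltbp4* 84.6% in mESCs. By the longest coding transcript, *Tgfb1* was 8.11% of CPCC ligands, *Ltbp1* 7.76% and 34.5%, *Ltbp3* 25.4% in CPCCs, and *Ltbp4* 86.9% in mESCs. No paired analysis was possible because the columns carry no replicate numbers. Counting error limits the mESC levels of *Tgfb1*, *Tgfb2*, *Tgfbr2* and *Ltbp3*, each resting on 23 to 37 counts.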

Other observations

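*Ltbp2* and *Tgfb3* lie on chromosome 12 with 1.18 Mb between them, and both were far higher in CPCCs. Of the 18 genes between them that a table lists, 17 were tested, 6 rose and 3 fell (edgeR's quasi-likelihood test, adjusted p under 0.05). *Tgfb1* and *Ltbp4* lie on chromosome 7 with 1.6 Mb between them, and *Tgfb1* rose while *Ltbp4* was not called. Of 13 tested genes between them, 4 rose and 3 fell. Over all tested genes 31.7% were called as higher and 29.7% as lower, and nothing is read from the counts in these 2 stretches.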
